A study of Mus musculus with 34 samples.

Results

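Known sinusoidal endothelial transcripts were followed through 10 genes, Stab1, Stab2, Lyve1, Clec4g, Kdr, Oit3, Dnase1l3, Cdh5, Wnt2 and Rspo3. They were chosen by name, as known markers and secreted signals of the endothelium that lines the liver sinusoids. All 10 were present among the 24951 genes counted in hepatocyte libraries and the 26233 counted in macrophage libraries. Neither fraction was isolated to contain endothelial cells, and the cell type that each transcript came from was not measured.

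The study asked how loss of YAP and TAZ from bile duct cells bears on the rest of the liver, with and without acute injury. All mice were of a mixed B6;129P background, carried Yap fl/fl Taz fl/fl alleles and received tamoxifen at 1.6 mg/kg on 5 days at 7 to 8 weeks of age, with a washout of 3 weeks. Knockout mice also carried Opn-iCreERT2, in which the osteopontin promoter, active in bile duct epithelium, drives a Cre that tamoxifen switches on, and controls were siblings without Cre. Part of each genotype received the hepatotoxin carbon tetrachloride (CCl4) at 1 ml/kg and was sampled 48 h later. Hepatocytes, sedimented at low speed, purified on Percoll and sorted as live cells, gave 6 control and 5 knockout libraries without CCl4, and 3 control and 4 knockout libraries after it. Macrophages, sorted from the remaining liver cells as F4/80 and CD45 positive and propidium iodide negative, gave 4 libraries for each of the 4 groups.

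Liver sinusoidal endothelial cells form a fenestrated lining without a continuous basement membrane and take up waste from the blood through scavenger receptors and lectins. They also instruct their neighbours. Wnt ligands and R-spondin 3 released by endothelium near the central vein keep Wnt signalling active in the adjacent hepatocytes, the cells in which CCl4 is converted to its toxic form. Endothelial cells, Kupffer cells and stellate cells lie in contact along the sinusoid, and enzymatic dissociation of liver does not always separate them.

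Library totals ran from 931496 to 7535053 counts for hepatocytes and from 596380 to 5128587 for macrophages. The sequencing files fell into 2 numbered series. To the first belonged hepatocytes of mice 2, 7, 8, 12 and 15 and macrophages of mice 8 and 11, all controls, and every knockout library was in the second. For the hepatocytes of mouse 15 and the macrophages of mouse 11, another label stated knockout, and both were kept as the controls that their genotype and group labels state. The defining markers of each labelled cell type were abundant in its libraries. The 12 hepatocyte genes examined summed to 67448 to 110828 CPM (counts scaled to a common library total) in hepatocyte libraries. The 12 Kupffer cell genes summed to 7706 to 27029 CPM in macrophage libraries. Hepatocyte transcripts were also found in macrophages, at 612 to 36114 CPM. In macrophages of knockout mice 13 and 14 after CCl4 they exceeded the Kupffer cell genes, as given with Cdh5 below. Neither fraction was sorted for Cre activity, and no call was made for Yap1 or Wwtr1 by genotype in either. The 8 biliary genes examined summed to 30.4 to 332 CPM in hepatocyte libraries and 54.7 to 437 CPM in macrophage libraries.

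Every gene was more abundant in the macrophage fraction than in the hepatocyte fraction. Summed over the 10 genes, macrophage libraries held 464 to 2787 CPM and hepatocyte libraries 11.2 to 392 CPM, so that the ranges did not overlap. Because each transcript yields 1 tag at its 3′ end, CPM were not divided by length. In bulk samples a lower level cannot be told apart as fewer endothelial cells or less RNA per endothelial cell. By group, the summed level averaged 1871 ± 611 CPM (SD, n = 4) in knockout macrophages without CCl4, 1778 ± 207 (n = 4) in control macrophages, 1519 ± 387 (n = 4) in knockout macrophages after CCl4 and 917 ± 531 (n = 4) in control macrophages after CCl4. In hepatocytes the order was 182 ± 139 CPM in knockout mice without CCl4 (n = 5), 176.6 ± 75.7 in controls after CCl4 (n = 3), 101 ± 40.7 in knockout mice after CCl4 (n = 4) and 88.7 ± 84.2 in controls without CCl4 (n = 6). Neighbours in each order overlapped between libraries.

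**Figure D1:**
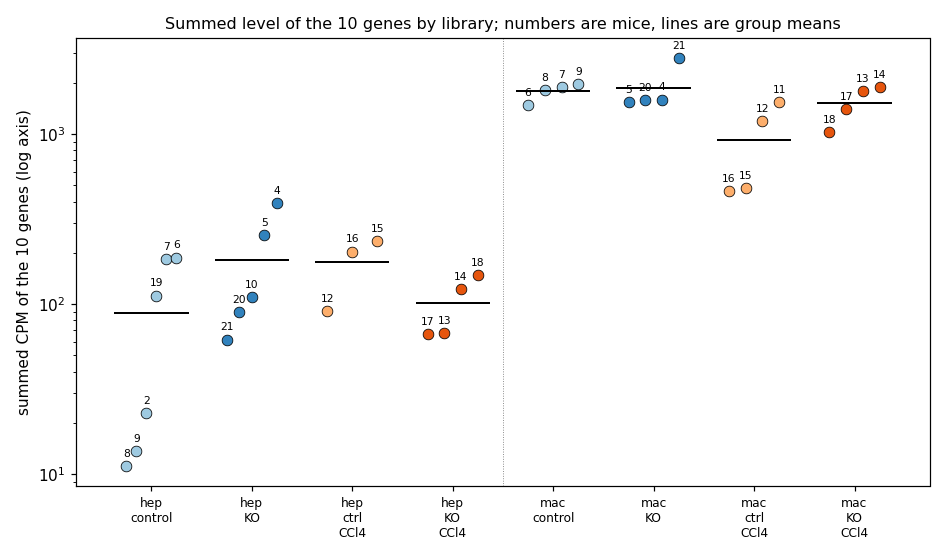
Summed CPM of the 10 genes on a log axis, by group, with 1 point per library, the number of the mouse beside it and a line at the group mean; hep is hepatocytes, mac macrophages, KO knockout and ctrl control. Macrophage libraries lie between 464 and 2787 CPM and hepatocyte libraries between 11.2 and 392 CPM, with hepatocytes of mice 2, 8 and 9 and macrophages of mice 15 and 16 at the bottom of their fractions.

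2 sets of libraries stood apart within their groups, and results that rest on them are given with and without them. In control hepatocytes without CCl4 the summed level was 11.2 CPM in mouse 8, 13.6 in mouse 9 and 23.0 in mouse 2, against 112, 184 and 188 CPM in mice 19, 7 and 6. In control macrophages after CCl4 it was 464 CPM in mouse 16 and 482 in mouse 15, against 1195 in mouse 12 and 1529.6 in mouse 11. The 3 low hepatocyte libraries also held the least stellate cell RNA of their group, 181 to 217 CPM against 391 to 639 CPM. The Kupffer cell genes were lowest in mice 8 and 9 (132 and 102 CPM), but at 313 CPM in mouse 2 they lay above the 220 CPM of mouse 7. The low macrophage libraries held 612 and 1121 CPM of hepatocyte genes and 176 and 183 CPM of stellate cell genes, below all 14 other macrophage libraries, while their Kupffer cell genes summed to 14928 and 16697 CPM. What part these differences had in the results was not tested.

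Fitted over all 34 libraries, the 10 genes were called higher in macrophages than in hepatocytes, where 40.9% of the 12052 genes tested were called higher (edgeR quasi-likelihood test, adjusted p from 1.08e-13 to 1.81e-05). The median log2 fold change of the members was 2.45, beside 0.14 over all genes, a shift that was 0.18 with other size factors. Cdh5 had a log2 fold change of 4.51 (SE 0.324), Stab1 of 3.44 (SE 0.323), Stab2 of 3.04 (SE 0.239) and Kdr of 2.91 (SE 0.415), and the other 6 lay between 2.33 and 2.45. Whether the genes differed from each other in this ratio was not tested. In the 15 mouse numbers present in both fractions, the macrophage library was higher in 15 of 15 for Stab1, Stab2, Kdr and Cdh5 and in 12 of 15 for Rspo3, the lowest count. For the summed level the ratio of macrophages to hepatocytes ran from 2.05 in mouse 15 and 2.28 in mouse 16 to 144 in mouse 9 and 161 in mouse 8, the same libraries that stood apart above.

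The related lists were compared in the same fit, where 40.9% of all genes tested were called higher in macrophages and 74.8% in either direction. Of 33 other sinusoidal endothelial genes tested, 31 were higher in macrophages and none lower, led by Maf, Clec1b, Mrc1 and Icam2. Maf and Mrc1, a transcription factor and the mannose receptor, are expressed by liver macrophages as well as by endothelium. Of 12 genes of larger vessels, 10 were higher and 1 lower, the lower one being Clu, whose product clusterin hepatocytes secrete. Among 15 Wnt receptor and pathway genes, 6 were higher in macrophages, near the share over all genes, and 5 were lower. The 5 were the R-spondin receptors Lgr4 (log2 fold change -2.84, SE 0.26) and Lgr5 (-2.93, SE 0.337), the ubiquitin ligases Rnf43 (-3.16, SE 0.331) and Znrf3 (-1.40, SE 0.272), which R-spondins counteract, and the Wnt target Axin2 (-1.71, SE 0.444); Znrf3 and Axin2 were named after their values were seen. Of 12 genes of the VEGF and angiopoietin axis, 7 were higher and 3 lower. Vegfa, the ligand of Kdr, was among the lower (-1.84, SE 0.16), while the receptors Nrp1, Nrp2 and Tek were higher.

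**Figure D2:**
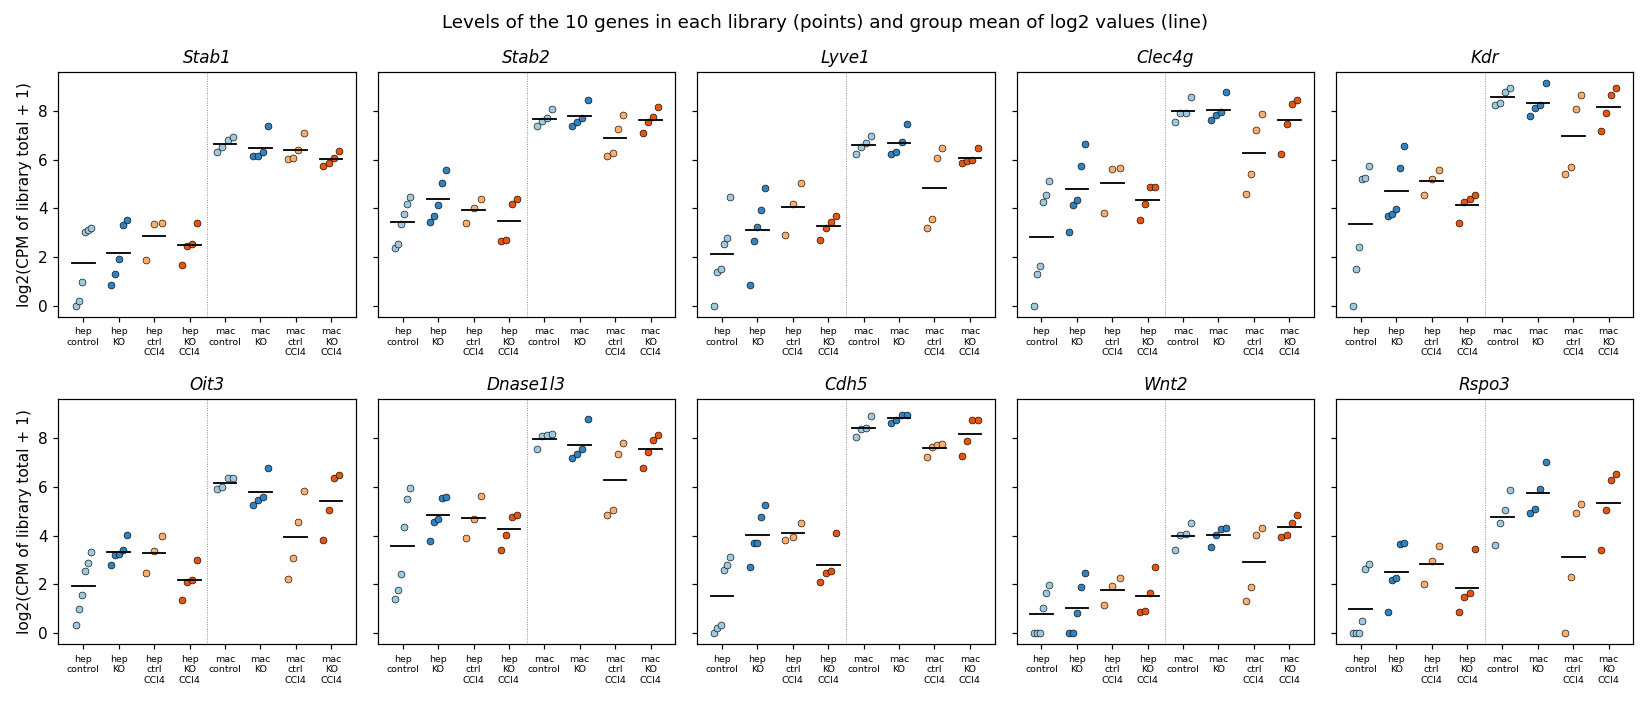
Level of each gene as log2(CPM + 1), by group, with 1 point per library and a line at the mean of the log2 values; the dotted line separates hepatocytes (hep) from macrophages (mac), KO is knockout and ctrl control. In each panel the macrophage means lie above the hepatocyte means, and among the macrophage groups the controls after CCl4 span the widest range for Kdr, Clec4g, Oit3, Dnase1l3 and Rspo3.

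Stab1 (chr14:31139013-31168641) and Stab2 (chr10:86841198-87008025) encode stabilins, large scavenger receptors that clear hyaluronan and modified lipoproteins from the blood. In control macrophages Stab2 stood at 206, 163, 192 and 265 CPM in mice 6, 7, 8 and 9, and after CCl4 at 225 CPM in mouse 11, 152 in mouse 12, 70.4 in mouse 15 and 76.8 in mouse 16. 3 of the 4 injured libraries lay below every uninjured one. Stab1 was at 79.2 to 119.9 CPM before and 64.0 to 136 CPM after CCl4, overlapping ranges, and was highest of all in the knockout macrophages of mouse 21, at 167 CPM. In hepatocytes Stab2 was found in every library, at 4.11 to 46.9 CPM, and Stab1 at 0 to 10.4 CPM.

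Lyve1 (chr7:110850607-110863239) encodes a hyaluronan receptor of lymphatic and sinusoidal endothelium, and Clec4g (chr8:3707064-3720651) a lectin of liver and lymph node sinusoids. Lyve1 in control macrophages was 90.9, 73.1, 123 and 102 CPM, and after CCl4 87.4 and 65.1 CPM in mice 11 and 12 but 10.9 and 8.23 CPM in mice 15 and 16. Clec4g was 185 to 378 CPM in the 4 control libraries, and after CCl4 235 and 147 CPM in mice 11 and 12 and 41.2 and 22.9 CPM in mice 15 and 16. Both genes therefore overlapped between the groups through mouse 11. In knockout macrophages after CCl4 Lyve1 held a narrow range of 56.8 to 87.8 CPM, while Clec4g ranged from 74.8 to 350.3 CPM.

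Kdr (chr5:75932827-75978458) encodes the main signalling receptor for VEGF-A on endothelium. Its level in control macrophages was 301, 496, 441 and 321 CPM, and after CCl4 it was 397 CPM in mouse 11, 272 in mouse 12, 50.1 in mouse 15 and 41.1 in mouse 16. In hepatocytes it was among the most abundant of the 10 genes, at 0 CPM at the lowest, 20.3 at the median and 52.4 at the highest in controls without CCl4. After CCl4, hepatocyte libraries held 22.6, 46.5 and 35.7 CPM in controls and 18.2, 22.2, 9.66 and 19.9 CPM in knockout mice, ranges that just failed to overlap. The fitted difference was -1.10 on the log2 scale (SE 1.03, adjusted p = 0.662 by edgeR), and for 3.48% of genes tested the knockout libraries lay wholly below the controls.

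Oit3 (chr10:59422958-59441778) encodes a secreted protein with a zona pellucida domain that marks sinusoidal endothelium, and Dnase1l3 (chr14:7964533-7994573) a secreted nuclease that degrades circulating chromatin. Oit3 was 59.4, 80.1, 61.8 and 80.8 CPM in control macrophages of mice 6, 7, 8 and 9, and after CCl4 22.8, 55.1, 7.44 and 3.66 CPM in mice 11, 12, 15 and 16. The groups did not overlap. Dnase1l3 was 185 to 285 CPM in controls, and 223, 162, 32.2 and 27.4 CPM in the same injured mice, so that mouse 11 overlapped with the controls.

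Cdh5 (chr8:104101625-104144511) encodes VE-cadherin, the adhesion protein of endothelial junctions. Across the macrophage libraries Cdh5 followed the Kupffer cell genes (Pearson's r of 0.80) more closely than the other members (r of 0.25). Which cells its RNA came from was not measured. In control macrophages it stood at 340.3, 264, 333 and 475 CPM, and after CCl4 at 147, 212, 198 and 217 CPM in mice 11, 12, 15 and 16, so that the groups did not overlap. Here mice 15 and 16 did not lie below the other injured mice. In knockout macrophages Cdh5 was 424, 394, 498 and 489 CPM without CCl4. After CCl4 it was 237 and 155 CPM in mice 13 and 14 but 426 and 422 CPM in mice 17 and 18. The Kupffer cell genes summed to 7706 and 9014 CPM in mice 13 and 14 and to 23633 and 27029 CPM in mice 17 and 18. Hepatocyte genes were at 36114 and 33306 CPM in the first pair and at 3652 and 3688 CPM in the second. The part of this difference in the level of Cdh5 was not tested.

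Wnt2 (chr6:17988940-18030585), a Wnt ligand, and Rspo3 (chr10:29452416-29535867), the R-spondin that amplifies Wnt signals, are the secreted signals of the list. Wnt2 was 15.7, 9.54, 15.2 and 21.6 CPM in control macrophages and 18.9, 15.4, 1.49 and 2.74 CPM after CCl4 in mice 11, 12, 15 and 16. Rspo3 was 21.6, 32.4, 11.1 and 57.6 CPM in controls, and 37.7, 29.8 and 3.97 CPM after CCl4 in mice 11, 12 and 15. It had no count in mouse 16, where 3 counts stand for 2.74 CPM. Without CCl4 Rspo3 in knockout macrophages was 32.7, 29.0, 59.4 and 130.1 CPM. In hepatocytes Wnt2 lay at 0 to 5.61 CPM and was too sparse to be tested, and Rspo3 lay at 0 to 11.99 CPM with no count in control mice 8, 9 and 19.

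The genes shared features of sequence only in part. RefSeq promoters of GRCm38.p6 were given for 5 of the 10 genes, namely Stab1, Stab2, Clec4g, Kdr and Wnt2, and the 250 bases before the start site were searched on both strands for 4 motifs. The ETS motif was sought as CCGGAA, as CAGGAA, and as GAGGAA, a form that the myeloid factor PU.1 binds, and the GATA motif as AGATAA. ETS and GATA factors are known regulators of endothelial genes. 3 promoters are shown because Clec4g and Kdr varied together between macrophage libraries while Stab1 followed them less closely. Motifs are in capitals, and the window is written 5′ to 3′ on the minus strand, on which all 3 genes lie, at chr8:3720652-3720901 for Clec4g, chr5:75978456-75978705 for Kdr and chr14:31168642-31168891 for Stab1.
Clec4g: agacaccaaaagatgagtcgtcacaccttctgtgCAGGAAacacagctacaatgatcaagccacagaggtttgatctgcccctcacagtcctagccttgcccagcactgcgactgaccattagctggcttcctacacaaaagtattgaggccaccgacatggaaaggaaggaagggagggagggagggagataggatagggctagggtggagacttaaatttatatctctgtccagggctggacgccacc
Kdr: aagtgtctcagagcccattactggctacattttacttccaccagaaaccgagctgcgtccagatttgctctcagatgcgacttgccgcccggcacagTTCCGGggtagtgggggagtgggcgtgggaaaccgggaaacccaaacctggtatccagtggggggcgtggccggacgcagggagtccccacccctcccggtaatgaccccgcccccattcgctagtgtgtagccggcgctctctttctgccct
Stab1: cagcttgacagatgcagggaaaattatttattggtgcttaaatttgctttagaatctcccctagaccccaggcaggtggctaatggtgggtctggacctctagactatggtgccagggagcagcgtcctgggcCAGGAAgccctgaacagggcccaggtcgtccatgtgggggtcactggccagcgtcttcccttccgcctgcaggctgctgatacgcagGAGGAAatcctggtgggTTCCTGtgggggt
CAGGAA began 216 bases before the start site in Clec4g and, in Stab1, 117 bases before it and again 13 bases before it on the other strand. Kdr held CCGGAA 153 bases before the start, on the other strand, and Stab1 held GAGGAA 30 bases before it. CAGGAA was found in 3 of the 5 members, counting Stab2, and in 25.7% of the 32851 promoters listed. CCGGAA was found in 1 of 5 against 12%, GAGGAA in 1 of 5 against 23.3%, and AGATAA in 0 of 5 against 9.99%. The motifs do not overlap each other in these 3 windows, and a match describes letters, not a bound site.

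In the macrophage fraction 8 of the 10 genes varied together and Cdh5 did not. Across the 16 macrophage libraries, log2(CPM + 1) of each gene was correlated with the mean of the other 9, as a description of libraries that share depth and cell content. Pearson's r was 0.85 to 0.98 for Stab2, Lyve1, Clec4g, Kdr, Oit3, Dnase1l3, Wnt2 and Rspo3, 0.50 for Stab1 and 0.25 for Cdh5. With the mean of the 12 Kupffer cell genes, r was 0.80 for Cdh5 and -0.10 to 0.17 for the other 9. Without mice 15 and 16 (14 libraries), r with the other members was -0.17 for Cdh5, 0.13 for Lyve1 and 0.33 for Wnt2 and 0.62 to 0.88 for the other 7, while Cdh5 kept an r of 0.82 with the Kupffer cell genes. The close relation of Lyve1 and Wnt2 to the others thus rested on those 2 libraries.

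**Figure D3:**
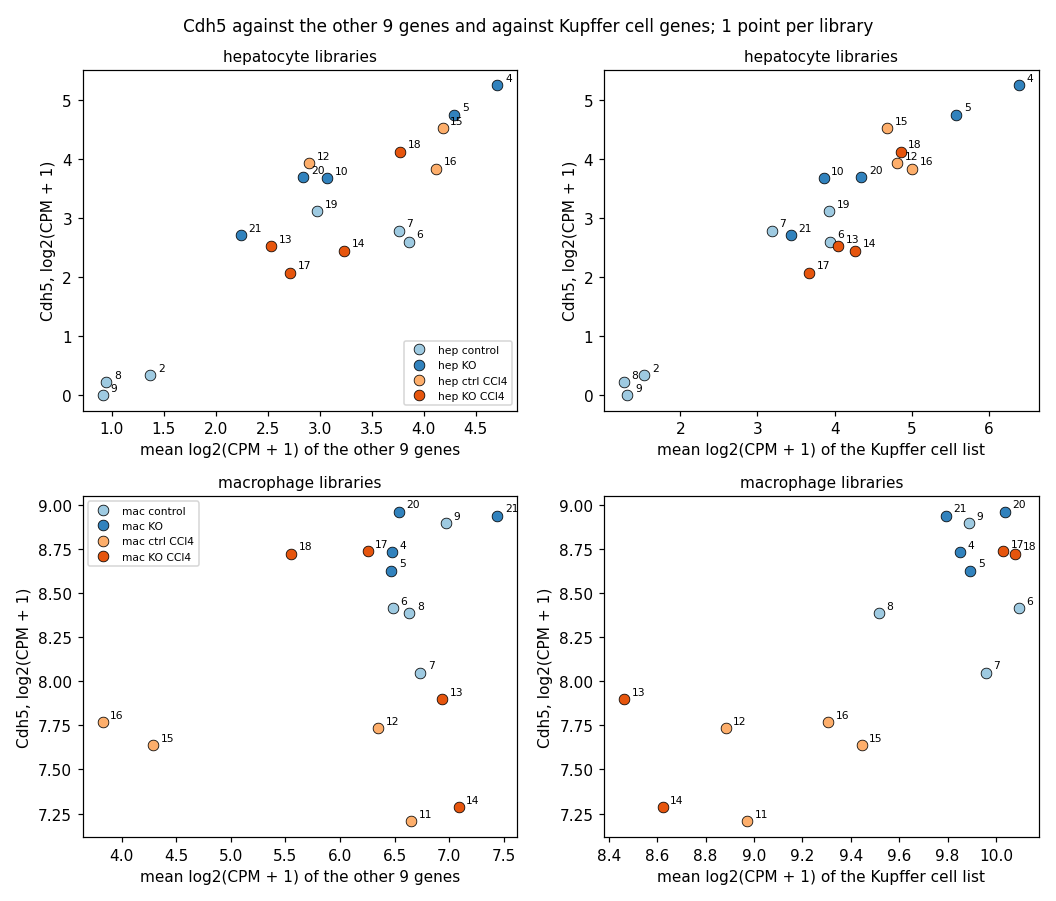
Cdh5, as log2(CPM + 1), against the mean of the other 9 genes (left) and the mean of the Kupffer cell genes (right), in hepatocyte libraries (top) and macrophage libraries (bottom), with 1 point per library, coloured by group and numbered by mouse. In macrophages Cdh5 follows the Kupffer cell genes (r of 0.80) more closely than the other members (r of 0.25), with mice 15 and 16 far to the left in the first panel of that row.

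The share of each gene in the counts of the 10 also varied. Cdh5 made up 8.27% to 46.7% of them in macrophage libraries, with the highest shares in mice 16, 15 and 18 (46.7%, 41.1% and 41.1%), and 0% to 15.6% in hepatocyte libraries. Kdr made up 8.88% to 26.5% and Stab2 8.72% to 16.6% in macrophages. Wnt2 was the scarcest there, at 0.309% to 1.49%. In hepatocytes r with the other members was 0.69 to 0.97 for all 10 genes over 18 libraries, and 0.60 to 0.94 over the 15 libraries without mice 2, 8 and 9. Cdh5 there had an r of 0.95 with the Kupffer cell genes, or 0.85 without those mice. The other members also followed the Kupffer cell genes there, with r from 0.66 for Oit3 to 0.90 for Clec4g. Without those mice their r ran from 0.37 for Dnase1l3 to 0.71 for Clec4g. The 6 genes most like the mean of the members were Cavin2, Flt1, Sema6a, Ehd3, Cd300lg and Shroom2 in macrophages (r of 0.966 to 0.959, 10868 genes ranked), of which Flt1, Sema6a, Ehd3 and Cd300lg were on the endothelial list. In hepatocytes they were Dcn, Igfbp7, Sod3, Plxnc1, Calcrl and Bgn (r of 0.981 to 0.947, 9038 genes ranked). Dcn and Bgn encode decorin and biglycan, matrix proteoglycans of stellate cells and fibroblasts.

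After CCl4 in controls, Cdh5 and Oit3 fell in the macrophage fraction and the other 8 genes were not called. This was 2 of 10 genes lower, where 6.39% of the 10815 genes tested were called lower and 13.2% in either direction. The log2 fold change was -1.08 for Cdh5 (SE 0.277, adjusted p = 0.0151 by edgeR) and -1.995 for Oit3 (SE 0.627, adjusted p = 0.0475). The fitted value was negative for all 10 genes, with a median of -1.20, from -0.42 for Stab1 to -1.995 for Oit3. An unadjusted p under 0.05 was reached by 7 of them, with adjusted p of 0.0611 for Stab2, 0.0792 for Lyve1 and 0.0824 for Dnase1l3. Groups that did not overlap, Cdh5 and Oit3, were 2 of 10 against 5.84% of genes tested. Among the related lists, 7 of 31 other sinusoidal genes were lower and none higher, led by Mrc1, Maf, Gpr182 and Cd300lg. No gene of 11 in the VEGF and angiopoietin axis was called, and 1 of 14 other angiocrine signals was, Il6 (-2.74, SE 0.418, lower).

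Other cells changed in the same libraries. Of 11 Kupffer cell genes 4 were lower, among them Timd4 and Clec4f, beside 6.39% of all genes called lower. Of 12 recruited monocyte genes 5 were higher and none was called lower, beside 13.2% of all genes called in either direction. The higher genes were led by Cx3cr1, Ly6c2 and Ccr2. Fn1 (-1.36, SE 0.439), F10, Itgam and Plac8 of that list had values below 0. The summed Kupffer cell genes were at 10473 to 16697 CPM after CCl4, against 16313 to 21488 CPM before it, and hepatocyte genes at 612 to 17379 CPM against 16620 to 18213. No stellate cell gene of 12 was called. The part of these changes in the result for the endothelial genes was not tested.

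Both calls depended on which libraries were included. Mice 15 and 16 were chosen by their low summed level, so that leaving them out had to lessen the fall of the sum. Without mice 15 and 16 neither gene was called: Cdh5 had -1.26 (SE 0.37, adjusted p = 0.0517) and Oit3 -1.23 (SE 0.604, adjusted p = 0.254), and the median of the 10 genes was -0.57. Without mouse 11, the library with conflicting labels, 5 genes were called lower (Stab2, Lyve1, Clec4g, Kdr and Dnase1l3), and Cdh5 (adjusted p = 0.0505) and Oit3 (adjusted p = 0.0985) were not. Oit3 was called only while mouse 12 was the library left out (adjusted p = 0.00842), and its adjusted p without any other single library was 0.0651 to 0.124. A term for the file series left 3 calls, Cdh5 (-1.10, adjusted p = 0.0134), Stab2 (-0.99, adjusted p = 0.0363) and Lyve1 (-1.63, adjusted p = 0.0331). DESeq2 also called 3, Oit3, Dnase1l3 and Cdh5.

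**Figure D4:**
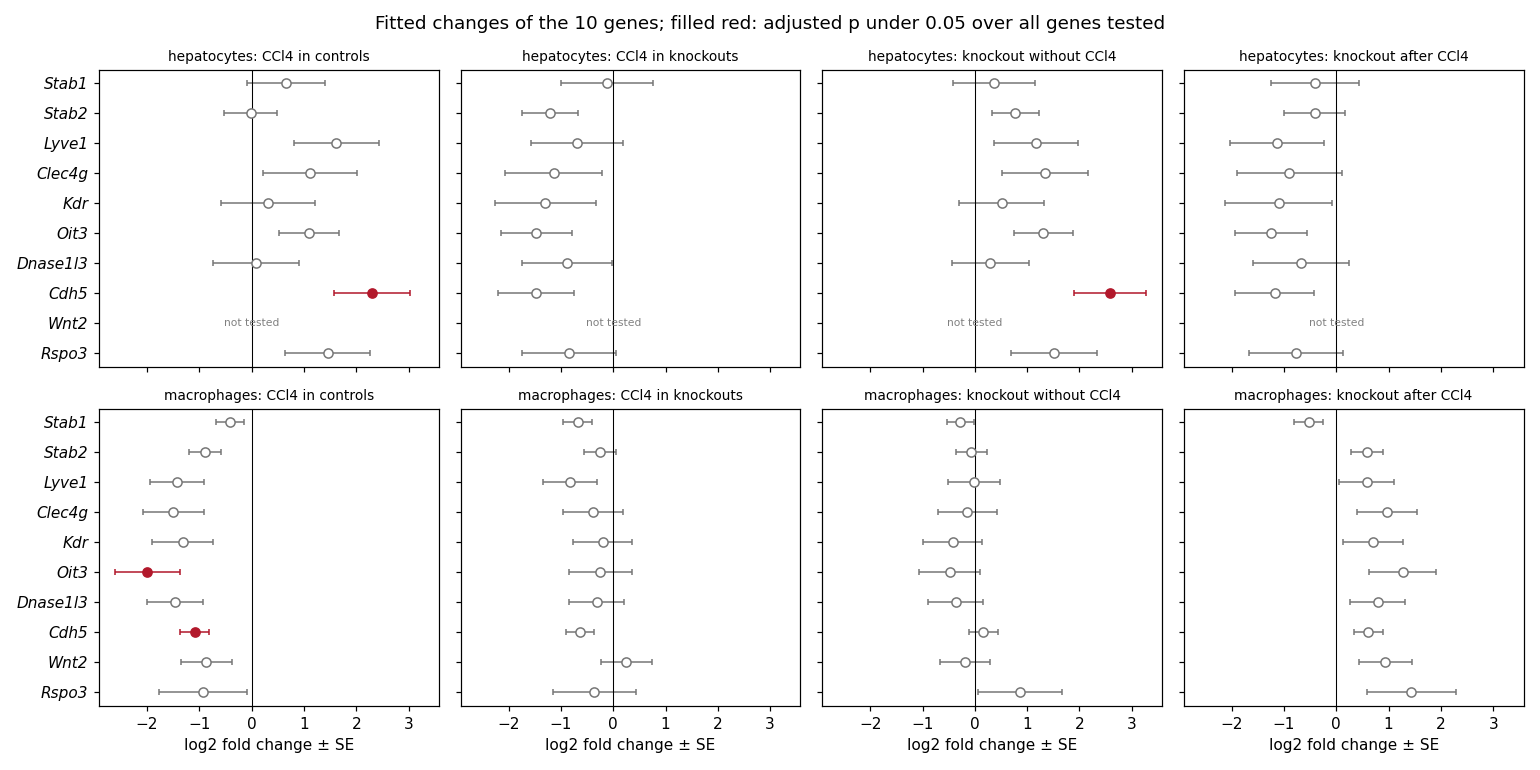
Fitted log2 fold changes of the 10 genes, with bars of 1 approximate SE, in 4 comparisons of hepatocyte groups (top) and of macrophage groups (bottom); filled red points had an adjusted p under 0.05 over all genes tested, and Wnt2 was not tested in hepatocytes. In control macrophages after CCl4 all 10 values lie below 0 with Cdh5 and Oit3 called, and Cdh5 alone is called in hepatocytes, at 2.30 after CCl4 and 2.59 in knockout mice.

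In knockout macrophages no member was called after CCl4 (0 of 10 by edgeR and by DESeq2, where edgeR called 0.878% of genes), and 2 reached an unadjusted p under 0.05, Stab1 and Cdh5. Their values were -0.68 (SE 0.275) and -0.64 (SE 0.274), and the median of the 10 was -0.34. The injured knockout libraries are those that divided by Kupffer cell and hepatocyte RNA, as given with Cdh5 above. Whether the response differed by genotype was tested directly, and none of the 10 was called, at an unadjusted p under 0.05 either, with edgeR calling 0.194% of genes and DESeq2 none of the 10. The largest interaction was that of Oit3, at 1.75 (SE 0.863, adjusted p = 0.437). Knockout against control macrophages gave no member call without CCl4, with 0 also at an unadjusted p under 0.05 and by DESeq2 (0.166% of genes called). After CCl4 it gave none either (0.0647% called, 0 of 10 by DESeq2), with Cdh5 at an unadjusted p under 0.05 and 0.61 on the log2 scale (SE 0.276, adjusted p = 0.599).

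In hepatocytes, Cdh5 was the single member called, and it rose after CCl4 in controls and in knockout mice without CCl4. The 6 control libraries without CCl4 held 52 counts of Cdh5 together, and 1 held none. Its level there was 0 CPM at the lowest, 2.65 at the median and 7.67 at the highest. In controls after CCl4 it was 14.3, 21.9 and 13.3 CPM in mice 12, 15 and 16, above all 6 uninjured controls, as was so for 24.8% of genes tested. In knockout mice without CCl4 it was 37.1, 25.8, 11.8, 11.9 and 5.54 CPM in mice 4, 5, 10, 20 and 21, and only mouse 21 overlapped with the controls. In knockout mice after CCl4 it was 4.75, 4.45, 3.22 and 16.4 CPM in mice 13, 14, 17 and 18.

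After CCl4 in controls the log2 fold change of Cdh5 was 2.30 (SE 0.724, adjusted p = 0.0248 by edgeR), 1 of 9 members tested, where 13.7% of 9679 genes were called higher and 27.4% in either direction. No other member reached an unadjusted p under 0.05, and the median of the 9 was 1.09. In knockout against control without CCl4 it was 2.59 (SE 0.696, adjusted p = 0.0322), again 1 of 9, where 4.64% of genes were called higher and 7.87% in either direction. These 2 comparisons share the 6 control libraries. Next to Cdh5, Oit3 had 1.31 (SE 0.565, adjusted p = 0.15) and Rspo3 1.52 (SE 0.822, adjusted p = 0.25) in knockout mice without CCl4, and Lyve1 had 1.62 (SE 0.813, adjusted p = 0.157) after CCl4 in controls.

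Both rises of Cdh5 were smaller without the uninjured control libraries of lowest summed level, mice 2, 8 and 9. These libraries were chosen by that level, to which Cdh5 adds, so that leaving them out had to raise the summed control level. The smaller values are therefore no separate test of the rises. Without mice 2, 8 and 9, Cdh5 had 1.07 (SE 0.554, adjusted p = 0.211) after CCl4 and 1.34 (SE 0.533, adjusted p = 0.234) in knockout mice, and the medians of the 9 members were 0.12 and 0.17. The CCl4 call was also lost without mouse 2 (1.92, adjusted p = 0.0572), mouse 8 (1.94, adjusted p = 0.0539) or mouse 15 (1.99, adjusted p = 0.102), the last being the library with conflicting labels. The knockout call was lost without mouse 2 (2.18, adjusted p = 0.0809), 8 (2.20, adjusted p = 0.0743), 4 (2.19, adjusted p = 0.113), 5 (2.44, adjusted p = 0.07) or 20 (2.70, adjusted p = 0.0556). Under a term for the file series the CCl4 call was kept (2.31, adjusted p = 0.0305), and the knockout value was 2.56 (adjusted p = 0.214). Restricted to the second series, Cdh5 had 1.34 after CCl4 (adjusted p = 0.51) and 2.00 in knockout mice (adjusted p = 0.344). Leaving out mouse 7 gave 3 genes called after CCl4 (Oit3, Cdh5 and Rspo3) and leaving out mouse 6 gave 2 (Lyve1 and Cdh5).

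Genes of other cells moved with Cdh5 in the hepatocyte fraction. In knockout mice without CCl4, 7 of 11 Kupffer cell genes were higher, beside 4.64% of all genes, led by Timd4 (3.21, SE 0.655), Marco, Clec4f and Vsig4. Their summed level was 420 to 1879 CPM against 102 to 337 CPM in controls. Clec4f, a marker of Kupffer cells, was detected in every knockout library and had no count in 1 control library. After CCl4 in controls, where 13.7% of all genes were called higher, 4 of 11 Kupffer cell genes were, namely Vsig4, Cd5l, C1qc and Timd4. The Kupffer cell genes summed to 589 to 769 CPM in these libraries. Of 10 stellate cell genes tested there, 2 were higher, Acta2 (4.52, SE 0.776) and Pdgfrb (3.23, SE 0.607), beside the same 13.7% of all genes. Of the same list 1 was lower, Cxcl12 (-0.788, SE 0.187). Beside those shares of all genes, biliary genes, which mark the cells targeted by the knockout, were higher for 2 of 5 tested in each comparison. After CCl4 in controls these were Prom1 (3.62, SE 0.541) and Sox9 (2.07, SE 0.399), and in knockout mice without CCl4 Prom1 (3.501, SE 0.536) and Tspan8 (2.61, SE 0.64). The 8 biliary genes summed to 30.4 to 92.1 CPM in controls without CCl4, 96.5 to 266 CPM in controls after it and 83.3 to 307 CPM in knockout mice without it. The part of these cells in the rise of Cdh5 was not tested.

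Genes on the list of larger vessels were also called in the same hepatocyte comparisons, beside 13.7% of all genes called higher after CCl4 and 4.64% in knockout mice. After CCl4 in controls, 4 of 7 genes of larger vessels were higher, Sele (4.32, SE 0.701), Selp (3.09, SE 0.647), Thbd (2.32, SE 0.555) and Eln (1.55, SE 0.481), whereas of 23 other sinusoidal genes none was higher and 1, Plpp3, was lower. Sele and Selp encode the selectins to which leukocytes attach, and Thbd thrombomodulin. In knockout mice without CCl4, 3 of 7 were higher, Thbd (3.08, SE 0.528), Sele (3.44, SE 0.8) and Selp (2.38, SE 0.694), and 1 of 23 other sinusoidal genes, Clec1b. Of 8 other angiocrine signals, 5 were higher and 2 lower after CCl4 in controls, and 1 was higher and none lower in knockout mice. Inhbb, an activin subunit, was higher in both (5.05, SE 0.985, and 4.65, SE 1.08). Of the Wnt receptor list, Fzd8, Lgr4 and Lrp6 were lower after CCl4 and none of 15 was higher. The difference between lists was not tested.

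Neither the response of knockout hepatocytes to CCl4 nor their difference from controls after CCl4 gave a member call. In the first, 0 of 9 members were called by edgeR and by DESeq2 (edgeR called 13.9% of genes), 2 reached an unadjusted p under 0.05, Stab2 (-1.21, SE 0.538) and Oit3 (-1.47, SE 0.673), and all 9 values were negative with a median of -1.14. In the second, 0 of 9 were called by either tool (0.176% of genes by edgeR), 0 at an unadjusted p under 0.05, and all 9 values were negative with a median of -0.90. The interaction of genotype and CCl4 was negative for all 9 genes, with a median of -2.25, and none was called (0.217% of genes called by edgeR, 0 members by DESeq2). Oit3 (-2.56, SE 0.889, adjusted p = 0.261) and Cdh5 (-3.77, SE 1.03, adjusted p = 0.134) reached an unadjusted p under 0.05. Mice 2, 8 and 9 were chosen by their low summed level, so that leaving them out tends to raise the interaction. Its sign was negative for every member only with these libraries included. Without them Stab1 had a response to CCl4 of -0.09 in knockout mice against -0.48 in controls. Dnase1l3 had -0.87 against -0.89, while the other members tested stayed lower in knockout mice. These comparisons share libraries with those above, and their signs are not independent.

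Last, the response to CCl4 was compared between fractions over both genotypes. None of the 10 genes was called by edgeR, which called 4.07% of 12052 genes, or by DESeq2, and 2 reached an unadjusted p under 0.05. Lyve1 had -1.61 (SE 0.736, adjusted p = 0.226) and Cdh5 -1.29 (SE 0.5677, adjusted p = 0.206), negative values meaning a lower response in macrophages. The fitted value was negative for 9 of 10 genes, with a median of -0.92. Under single mouse numbers, the summed level of mice 15 and 16, controls after CCl4, was 235 and 203 CPM in hepatocytes beside 482 and 464 CPM in macrophages, while in mice 8 and 9, controls without CCl4, it was 11.2 and 13.6 CPM beside 1800 and 1957 CPM.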

How the data were processed

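Per the labels' protocols, libraries came from the QuantSeq 3′ FWD kit and were read as 50 bp single reads. Trimmomatic 0.39, HISAT2 2.1.0 and the build GRCm38 (mm10) are named in the submitters' processing notes. What the authors deposited are whole-number counts for each gene, with a column for every library, not normalized. Which counter and strand setting made them is not given in the sources used here, so reads of genes that overlap another on the opposite strand (Stab1, Stab2, Clec4g, Cdh5 and Rspo3) are uncertain.

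Tests were run with edgeR 4.0.16 under R 4.3.3: filterByExpr, TMM factors, robust quasi-likelihood F tests, 1 fit of 4 groups per cell type and 1 of all 8 groups over the 22586 genes in both tables, with Benjamini-Hochberg adjustment over all genes tested and a threshold of 0.05. Each SE was approximated by dividing the log2 fold change by the root of its F statistic. Fits were tested on simulated counts. Alternatives tried included DESeq2 1.42.0, RLE factors, no filter, the file series as a term, a replicate block, leaving out libraries, and, chosen after seeing the data, the second series alone, thinning, the older quasi-likelihood fit and leaving out the libraries of lowest member level. The series were split at the widest gap in the file numbers, 14 to 25. Floors use 3 counts, covering counting error only. A pair of libraries of 1 group differed by more than sampling noise in each case (chi-square per degree of freedom 5.76 to 48.6). Mouse numbers are those of the titles; no label says that libraries come from separate animals, so p-values measure the spread between these samples.

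The members and lists were chosen with earlier results of these data known. All 10 members were named, and from each other list up to 4 called genes of lowest p, and the 6 genes outside the members, of at least 5 CPM on average, most correlated with their mean. The lists held 34 other sinusoidal, 14 large-vessel, 21 angiocrine, 21 Wnt receptor, 16 VEGF axis, 12 Kupffer cell, 12 monocyte, 12 hepatocyte, 12 stellate cell, 8 biliary, 10 lymphocyte and 6 platelet genes. Gene positions are those of GENCODE on GRCm38.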

Additional observations from a re-analysis of the deposited data

Results flagged for a closer look

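Single libraries lay far from the others of their group in 9 of 77 Dixon tests of the members' CPM and their sum. The members vary together and the sum holds them, so the tests are not independent. The count therefore cannot be set against the 1 in 20 of independent tests. The macrophages of knockout mouse 21 without CCl4 gave 4 of the 9. Their summed level was 2787 CPM against at most 1592 CPM in the other 3. Dnase1l3 was at 437 CPM, Oit3 at 109.7 CPM and Stab1 at 167 CPM. The stellate cell genes summed to 4307 CPM in that library, the highest of all macrophage libraries. In hepatocytes of knockout mouse 18 after CCl4, Cdh5 at 16.4 CPM and Rspo3 at 9.93 CPM stood above the other 3 libraries. Control mouse 6 had a high Lyve1 level in hepatocytes, 21.2 CPM, and a low Dnase1l3 level in macrophages, 185 CPM. Lyve1 in macrophages of knockout mouse 14 after CCl4 was high for its group, at 87.8 CPM.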

How the results depend on the processing

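The 10 calls of macrophages over hepatocytes, and the 0 calls in the CCl4 response between fractions, were the same under all 11 alternatives and without any 1 of the 34 libraries. Same-numbered libraries of the 2 fractions are not stated to be from 1 animal. Their deviations correlated over 0.1 in 7 of 15 pairs (r of -0.10 to 0.32). The replicate block gave 10 and 0 calls.

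Elsewhere the number of members called changed as follows. In control hepatocytes after CCl4 (1 called) it was 0 with no filter, without the libraries of conflicting labels, in the second series alone, with thinning and without mice 2, 8 and 9, and 0 to 3 when each library was left out. In knockout hepatocytes without CCl4 (1 called) it was 0 with no filter, the series as a term, the second series alone, thinning, the older fit or without mice 2, 8 and 9, and 0 to 1 when each library was left out. In knockout hepatocytes after CCl4 (0 called) the second series gave 1, Oit3. In control macrophages after CCl4 (2 called) it was 1 with RLE factors, 7 with no filter, 5 without conflicting labels, 4 in the second series, 1 with the older fit, 0 without mice 15 and 16, and 1 to 5 when each library was left out. With no filter, 1 member was called in knockout macrophages against controls after CCl4 (Rspo3) and 1 in the macrophage interaction (Oit3). The cause was not tested. No called gene changed sign under any alternative run. Depth limits Wnt2 and Rspo3 most: in hepatocytes 3 counts stand for 0.398 to 3.22 CPM.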

Other observations

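Across the 12 lists of other genes, lymphocyte and platelet genes were near the limit of detection in hepatocytes, with summed levels of 0 to 4.79 and 0 to 8.71 CPM. In macrophages platelet genes summed to 137 to 338 CPM in controls after CCl4 and to 43.7 to 139 CPM in controls without it, of which 2 genes were tested and none called. In the macrophages of knockout mice after CCl4 the summed level of the 10 genes was 1777 and 1876 CPM in mice 13 and 14, which held more hepatocyte RNA, and 1397 and 1027 CPM in mice 17 and 18. Cdh5 alone of the 10 was higher in both of mice 17 and 18 than in both of mice 13 and 14.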
